A study of Homo sapiens with 12 samples.

Results

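The YPEL genes, named after the Drosophila gene Yippee, form a family of 5 human genes, YPEL1 to YPEL5, and their transcripts were followed in 786-O renal cancer cells treated with everolimus, SGI-1027 or both. The members were chosen by symbol, and the family itself was selected on a measured value, because YPEL1 had a large increase after everolimus in these same libraries. All 5 members were among the 17085 genes of the deposited tables, and 4 of them (YPEL1, YPEL2, YPEL3 and YPEL5) passed the expression filter that left 12841 genes for testing. 786-O is an established human clear cell renal carcinoma line whose genotype is labelled WT, and no gene was altered in any group. There were 4 groups of 3 libraries each, all harvested after 24 h: DMSO, the solvent control, 5 µM everolimus, an inhibitor of the kinase mTOR, 1.5 µM of SGI-1027, which inhibits DNA methyltransferases, and a combination group that received 5 µM everolimus with 1.5 µM SGI-1027. The treatment protocol of the group given everolimus alone states 10 µM, whereas its other labels and the study's methods give 5 µM. All values come from 1 cell line, and no source says whether replicate libraries are from separate cultures, so p-values measure the spread between these libraries, which may be technical.

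YPEL proteins are small, strongly conserved proteins built around a zinc-binding Yippee domain, and they are found in the nucleus and at centrosomes and the mitotic spindle. YPEL3 is known as a target of p53 that slows growth and is linked to senescence. YPEL5, the most divergent member, associates with the CTLH complex, a ubiquitin ligase that contains RANBP9. The other members are close to YPEL3 in sequence, and less is known of what YPEL1, YPEL2 and YPEL4 do.

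Total counts ranged from 37046231 to 41516976 per library. All 7 markers of the carcinoma line fixed for this purpose (PAX8, EPAS1, VIM, KRT8, KRT18, CDH2 and CAV1) were present in every library, from a lowest FPKM of 26.9 for EPAS1 to 3466 for VIM. The leukocyte marker PTPRC had at most 1 count per library, the endothelial markers CDH5 and PECAM1 had at most 3 and 12 counts, and the epithelial marker EPCAM had 34 to 60 counts. DMSO replicate 1 and SGI-1027 replicate 3 stood apart from the other libraries of their groups: over genes with a mean of 50 or more counts, the chi-square per gene was 11.1 and 14.2 for the first and 17.7 and 18.1 for the second against their replicates, and 3.15 to 5.84 for all other replicate pairs. Their deviations from the group means ran together (r = 0.433 across genes). These are bulk libraries, so a change in the number of cells that carry a transcript and a change in the RNA per cell cannot be told apart.

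Since SGI-1027 targets the enzymes that methylate CG dinucleotides, the 250 bases before the annotated transcript start of each member are shown as the DNA on which such sites lie. They are RefSeq sequences of build GRCh38.p14, written 5′ to 3′ on the strand of the gene, with each CG in capitals, and 4 of the 5 members had an entry (all but YPEL1).
YPEL2 (chr17:59331405-59331654, plus strand): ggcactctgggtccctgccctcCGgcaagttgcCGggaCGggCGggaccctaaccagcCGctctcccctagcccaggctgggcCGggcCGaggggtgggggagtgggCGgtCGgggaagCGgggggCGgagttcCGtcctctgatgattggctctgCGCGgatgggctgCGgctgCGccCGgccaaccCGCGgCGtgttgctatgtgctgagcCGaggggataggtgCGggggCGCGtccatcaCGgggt
YPEL3 (chr16:30096214-30096463, minus strand): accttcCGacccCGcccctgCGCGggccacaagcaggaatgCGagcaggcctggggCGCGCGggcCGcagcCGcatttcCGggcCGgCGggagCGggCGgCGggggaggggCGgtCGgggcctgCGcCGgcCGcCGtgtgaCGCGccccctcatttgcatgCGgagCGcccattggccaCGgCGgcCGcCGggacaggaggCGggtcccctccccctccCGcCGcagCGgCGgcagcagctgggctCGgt
YPEL4 (chr11:57649913-57650162, minus strand): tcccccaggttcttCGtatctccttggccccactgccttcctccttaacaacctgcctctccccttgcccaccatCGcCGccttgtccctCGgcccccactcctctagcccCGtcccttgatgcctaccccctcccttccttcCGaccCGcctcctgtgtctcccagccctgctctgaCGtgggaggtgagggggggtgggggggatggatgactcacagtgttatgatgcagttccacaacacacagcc
YPEL5 (chr2:30146757-30147006, plus strand): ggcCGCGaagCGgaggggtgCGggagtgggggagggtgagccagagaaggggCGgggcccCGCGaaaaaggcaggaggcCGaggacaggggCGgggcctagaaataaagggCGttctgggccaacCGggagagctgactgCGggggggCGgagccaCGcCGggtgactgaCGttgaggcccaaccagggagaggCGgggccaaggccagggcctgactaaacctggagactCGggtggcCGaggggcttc
The YPEL3 window held 36 CG dinucleotides, more than 95.1% of the 35116 RefSeq promoter windows, YPEL2 held 25 (more than 78.4%) and YPEL5 held 19 (more than 65.4%). The YPEL4 window held 8, below the median of 11 over all windows. YPEL4 had 0 to 4 counts per library, and the other 3 were detected in every library. A link between the number of CG dinucleotides and the level was not tested. Methylation was not measured in these libraries. Across the 300 bases that include the first 50 transcribed bases, both strands were searched for the forkhead motif GTAAACA, the E-box CACGTG and the cAMP response element TGACGTCA, which 3.42%, 7.26% and 1.85% of all windows hold. The search found 1 match, a GTAAACA that begins at the transcript start of YPEL3 and so lies outside the bases shown.

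Per length, the family was dominated by YPEL5 in every group. FPKM, which scales fragments by gene length and library size, allowed levels to be compared between members. In DMSO cells the mean FPKM was 9.19 ± 0.203 for YPEL5 (SD, n = 3), 1.12 ± 0.0674 for YPEL2, 0.346 ± 0.169 for YPEL3, 0.151 ± 0.00618 for YPEL1 and 0.00853 ± 0.0148 for YPEL4. Neighbours in this order did not overlap in DMSO cells, where YPEL3 had FPKM values from 0.227 to 0.540 and YPEL1 from 0.145 to 0.157. After treatment the order of YPEL3 and YPEL1 was no longer distinct. The FPKM of YPEL1 then had means of 1.20 ± 0.10 (everolimus), 0.802 ± 0.0284 (SGI-1027) and 0.797 ± 0.115 (combination), and the YPEL3 means were 0.805 ± 0.270, 0.738 ± 0.0983 and 0.744 ± 0.238, with overlapping libraries in each treated group. YPEL5 and YPEL2 kept the first 2 places, at mean FPKM values of 15.0 ± 0.333 and 2.70 ± 0.0566 with everolimus, 14.2 ± 0.279 and 2.41 ± 0.106 with SGI-1027, and 14.1 ± 0.428 and 2.47 ± 0.175 with the combination.

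The summed FPKM of the 5 members was 10.8 ± 0.00735 in DMSO cells, 19.7 ± 0.291 with everolimus, 18.1 ± 0.288 with SGI-1027 and 18.2 ± 0.642 in the combination group. The family's make-up changed with its level. YPEL5 supplied 83.0% to 86.9% of the summed FPKM in DMSO libraries and 74.5% to 78.3% in the 9 treated libraries. The share of YPEL1 was 1.40% ± 0.0563 in DMSO cells and 6.05% ± 0.438 (everolimus), 4.42% ± 0.0951 (SGI-1027) and 4.38% ± 0.513 (combination) after treatment. The plot of summed FPKM shows that most of the added transcript was YPEL5, although its fold change was the smallest of the 4 tested members.

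**Figure D1:**
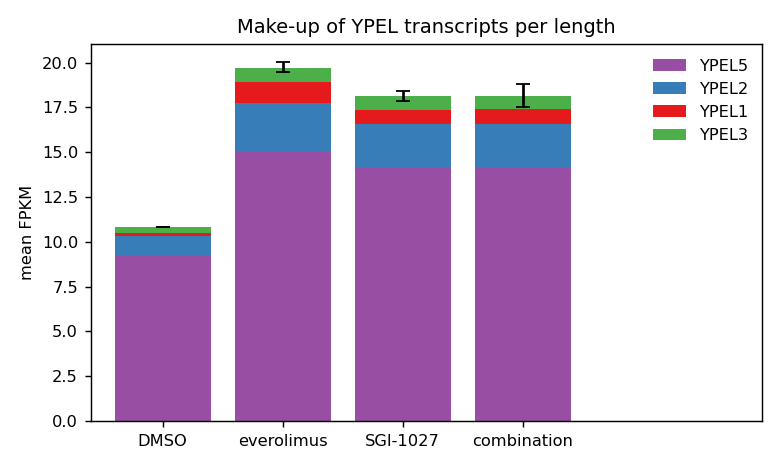
Mean FPKM of YPEL5, YPEL2, YPEL1 and YPEL3 stacked for the 4 treatment groups (3 libraries each), with the SD of the summed FPKM as an error bar. YPEL4 is left out because its mean FPKM was at most 0.0279. The summed level is 10.8 in DMSO cells and between 18.1 and 19.7 in the treated groups.

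YPEL1 changed most in relative terms. It had 25, 27 and 24 counts in the DMSO libraries, 173, 221 and 205 with everolimus, 131, 131 and 138 with SGI-1027, and 152, 122 and 120 with the combination. On the scale of normalized CPM (counts scaled to a common library size with TMM factors, known as CPM), these were 0.671, 0.656 and 0.628 for DMSO, 4.68, 5.40 and 5.36 for everolimus, 3.30, 3.55 and 3.54 for SGI-1027, and 3.96, 3.06 and 3.15 for the combination. All 9 treated libraries lay above the 3 DMSO libraries, and the SGI-1027 and combination libraries overlapped each other and lay below every everolimus library. The YPEL1 counts carry a limit of annotation. Of the 4753 distinct 50-base windows in YPEL1 transcripts of the GENCODE annotation, 2423 (51.0%) also occur, on the opposite strand, in transcripts of the neighbouring gene PPIL2, which encodes a cyclophilin-like protein with a U-box. The sources used here do not state whether the counting used the strand. PPIL2 was far more abundant, at a mean of 58.3 ± 3.16 normalized CPM in DMSO cells, 47.1 ± 1.27 with everolimus, 49.4 ± 3.6 with SGI-1027 and 46.0 ± 1.67 in the combination group, so it moved against YPEL1. The part of PPIL2 reads in the YPEL1 counts was not tested.

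YPEL2 was intermediate in both level and change. Its counts were 229, 265 and 219 in DMSO libraries, 552, 602 and 548 with everolimus, 542, 476 and 496 with SGI-1027, and 547, 492 and 504 with the combination. Normalized CPM ran from 5.73 to 6.44 in DMSO cells, from 14.3 to 14.9 with everolimus, from 12.7 to 13.7 with SGI-1027 and from 12.3 to 14.3 with the combination. The treated libraries were all above DMSO, and those with SGI-1027, alone or combined, were all below everolimus alone.

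YPEL5, the member tied to the CTLH ubiquitin ligase, was measured most precisely, with 1169 to 2188 counts per library. Its normalized CPM was 31.4, 32.5 and 33.3 in DMSO cells, 53.2, 53.4 and 51.6 with everolimus, 48.6, 50.3 and 51.0 with SGI-1027, and 50.6, 49.1 and 47.6 with the combination. The groups stood in the same arrangement as for YPEL2: DMSO lowest, everolimus highest, and the other two overlapping between them.

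YPEL3, the p53-responsive member, was scarce and variable. It had 32, 18 and 14 counts in DMSO libraries, 35, 47 and 68 with everolimus, 40, 45 and 52 with SGI-1027, and 40, 64 and 34 with the combination. Normalized CPM was 0.859, 0.437 and 0.367 in DMSO cells, 0.946, 1.15 and 1.78 with everolimus, 1.01, 1.22 and 1.33 with SGI-1027, and 1.04, 1.61 and 0.894 with the combination. Every treated library was above every DMSO library, but narrowly, since the highest DMSO value of 0.859 was next to the lowest combination value of 0.894, and the 3 treated groups overlapped one another.

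YPEL4 was at the limit of detection. It had 0, 2 and 0 counts in DMSO libraries, 2, 1 and 3 with everolimus, 3, 1 and 2 with SGI-1027, and 1, 1 and 4 with the combination, 20 counts in all. The groups overlapped, and a library with 0 counts allows up to 3, so a difference was not detectable at this depth and no fold change is given. YPEL4 failed the expression filter, and without that filter it was called in none of the 7 contrasts by edgeR.

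**Figure D2:**
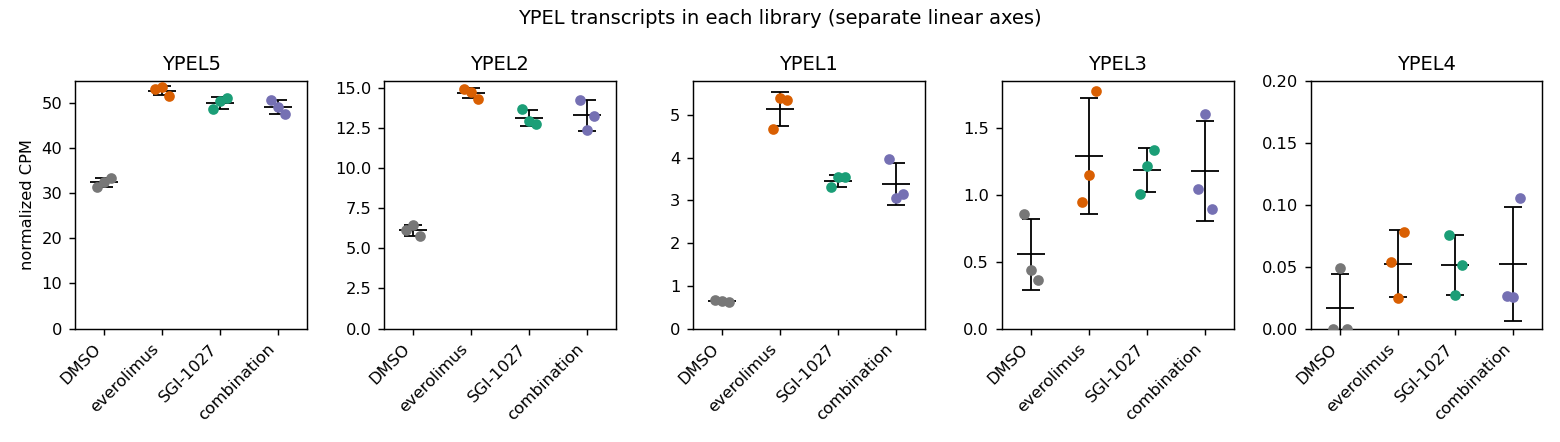
Normalized CPM (linear axes that start at 0, a separate scale for each gene) of the 5 YPEL transcripts in the 12 libraries. Each point is a library, the long line is the mean and the bars are the SD of 3 libraries. For YPEL5, YPEL2, YPEL1 and YPEL3 all treated libraries are above all DMSO libraries, and for YPEL4 the groups overlap between 0 and 0.105. The share of all tested genes that separate in this way was not counted, so nothing is read from the number of members that do.

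With everolimus, the contrast that drew attention to the family, all 4 tested members were higher than in DMSO cells. These values are a description and carry no test. The log2 fold change was 2.98 (SE 0.17) for YPEL1, a 7.86-fold difference that ranked 7 of 12841 genes. It was 1.26 (SE 0.08, rank 293) for YPEL2, 1.22 (SE 0.34, rank 316) for YPEL3 and 0.70 (SE 0.05, rank 993) for YPEL5. In this contrast 27.2% of all tested genes were called higher and 29.2% lower at a Benjamini-Hochberg adjusted p under 0.05, a split of 3488 higher and 3749 lower genes that became 4480 and 2901 with upper-quartile scaling. Nothing is read from the members' share here.

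SGI-1027 alone was also followed by higher levels of the 4 tested members. In the quasi-likelihood test of edgeR, adjusted by Benjamini-Hochberg over all 12841 genes, 4 of 4 rose, against a background of 32.0% of all tested genes called higher and 30.6% called lower. That split of 4106 higher and 3934 lower genes became 4731 and 3316 with upper-quartile scaling. YPEL1 rose by 2.40 on the log2 scale (SE 0.18, 95% interval 2.03 to 2.77, edgeR adjusted p = 1.66e-09), a 5.29-fold increase. YPEL2 rose 2.14-fold (log2 1.10, SE 0.08, edgeR adjusted p = 1.74e-09) and YPEL5 1.54-fold (log2 0.62, SE 0.05, edgeR adjusted p = 2.55e-09). For YPEL3 the increase was 2.15-fold with a wide interval of 1.30 to 3.55 (log2 1.10, SE 0.34, edgeR adjusted p = 0.00974). Without the 2 libraries that stood apart, the log2 fold changes were 2.41, 1.12, 0.59 and 1.46 for YPEL1, YPEL2, YPEL5 and YPEL3 (edgeR adjusted p = 8.05e-11, 1.09e-11, 1.05e-11 and 0.00204). This exclusion was chosen after seeing the data. It removed DMSO replicate 1, which had 32 YPEL3 counts against 18 and 14 in the other DMSO libraries. Among all genes, YPEL1 ranked 71, YPEL3 687, YPEL2 692 and YPEL5 1715 by fold change. This contrast and the next share the 3 DMSO libraries with the everolimus contrast in which the family was noticed, so low DMSO values would raise all 3 differences together. The members' p-values in these 2 contrasts are therefore not independent of that choice. Nothing is read from the number of members called in either of them.

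With the combination, 4 of 4 tested members again rose, where 32.8% of all tested genes were called higher and 33.4% lower. These 4213 higher and 4283 lower genes became 4773 and 3684 with upper-quartile scaling. The log2 fold change against DMSO was 2.37 for YPEL1 (SE 0.18, edgeR adjusted p = 1.40e-09), 1.12 for YPEL2 (SE 0.08, edgeR adjusted p = 9.19e-10), 1.10 for YPEL3 (SE 0.34, edgeR adjusted p = 0.00921) and 0.60 for YPEL5 (SE 0.05, edgeR adjusted p = 3.13e-09). Without the 2 libraries that stood apart they were 2.39, 1.12, 1.55 and 0.58 (edgeR adjusted p = 1.42e-11, 1.02e-12, 0.000417 and 1.22e-12). That exclusion removed DMSO replicate 1, the DMSO library with the most YPEL3 counts. Without DMSO replicate 2 or DMSO replicate 3 instead, the edgeR adjusted p for YPEL3 was 0.0436 or 0.0477. The YPEL3 call rested on 1 library. Without combination replicate 2, which had 64 of the group's 138 counts, its log2 fold change was 0.81 and the edgeR adjusted p was 0.0696.

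The combination could not be distinguished from SGI-1027 alone in any tested member. This is the one comparison that shares no library with the contrast in which the family was noticed. In edgeR's quasi-likelihood test 0 of 4 members were called, 0 had an unadjusted p under 0.05 and 0 were called by DESeq2. Of all tested genes 9.40% were called higher and 10.2% lower, so with 4 members nothing particular to the family is read from this count. The combination was 0.979 times the SGI-1027 level for YPEL1 (95% interval 0.797 to 1.20, edgeR adjusted p = 0.916), 1.01 times for YPEL2 (0.909 to 1.13, edgeR adjusted p = 0.897) and 0.983 times for YPEL5 (0.919 to 1.05, edgeR adjusted p = 0.765). For YPEL3 the ratio was 0.997 with an interval of 0.634 to 1.57 (edgeR adjusted p = 0.995). Without the 2 libraries that stood apart the log2 differences were -0.01 for YPEL1, -0.0012 for YPEL2, 0.09 for YPEL3 and -0.0098 for YPEL5 (edgeR adjusted p from 0.879 to 0.996). The intervals leave little room for a change in YPEL5 and YPEL2 and much more for YPEL3, so a missing call does not show equal levels.

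Relative to everolimus alone, the groups that received SGI-1027 had less YPEL1. The everolimus libraries are the ones in which a high YPEL1 drew attention to the family, so these differences are a description without a test. YPEL1 with the combination was 0.659 times the everolimus level (log2 -0.60, SE 0.14), and with SGI-1027 alone 0.673 times (log2 -0.57, SE 0.14). The log2 difference for the combination was -0.14 for YPEL2 (SE 0.07), -0.12 for YPEL3 (SE 0.31) and -0.10 for YPEL5 (SE 0.05), and for SGI-1027 alone it was -0.16, -0.12 and -0.08. The sign for YPEL3 rested on 1 library, since without everolimus replicate 3 both differences were 0.18. Of all tested genes, 20.1% were called higher and 19.2% lower with the combination than with everolimus, and 13.0% higher and 9.51% lower with SGI-1027 than with everolimus. The plot of fold changes shows the 4 members in the 5 contrasts that involve DMSO or the combination.

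**Figure D3:**
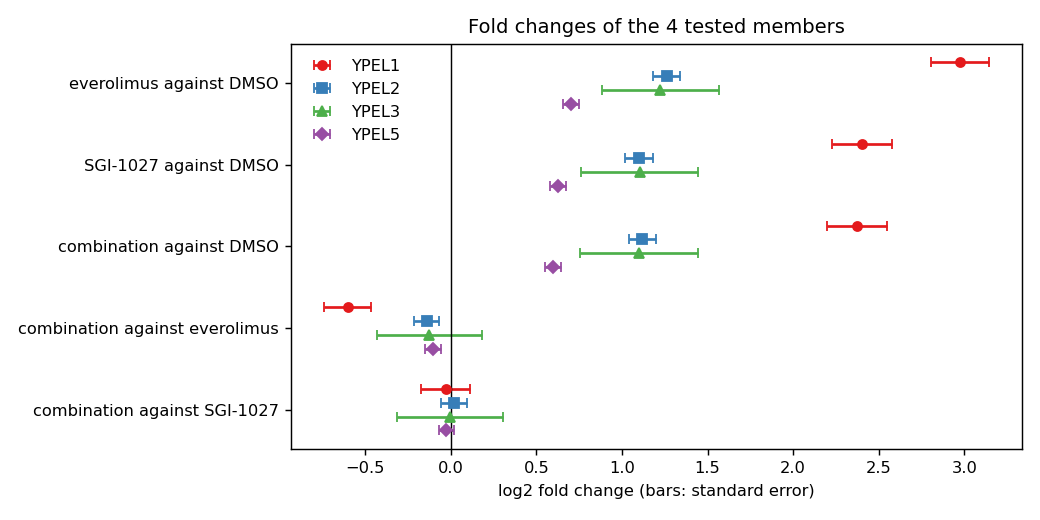
Log2 fold changes of YPEL1, YPEL2, YPEL3 and YPEL5 from edgeR in 5 contrasts, with standard errors as bars and a line at 0. The 3 contrasts against DMSO lie between 0.60 and 2.98, with YPEL1 farthest to the right, while the combination against SGI-1027 lies between -0.03 and 0.02.

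The combination stayed below the sum of the single-drug increments for each of the 4 members. The sum contains the everolimus difference in which the family was noticed, so what follows is a description without a test. If the increments of the single drugs had added, the combination would have reached 70.3 normalized CPM for YPEL5, 21.6 for YPEL2, 7.96 for YPEL1 and 1.92 for YPEL3. The measured means were 49.1 ± 1.48, 13.3 ± 0.956, 3.39 ± 0.495 and 1.18 ± 0.375 (SD, n = 3). The measured minus the summed level was -21.2 (SE 1.38), -8.36 (SE 0.679), -4.56 (SE 0.378) and -0.743 (SE 0.377). In each of the 4 members the everolimus mean was the larger of the single-drug means, and the combination mean was below it, by less than the SD for YPEL3. Had the fold changes multiplied, the levels would have been 81.3, 31.4, 27.3 and 2.76.

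**Figure D4:**
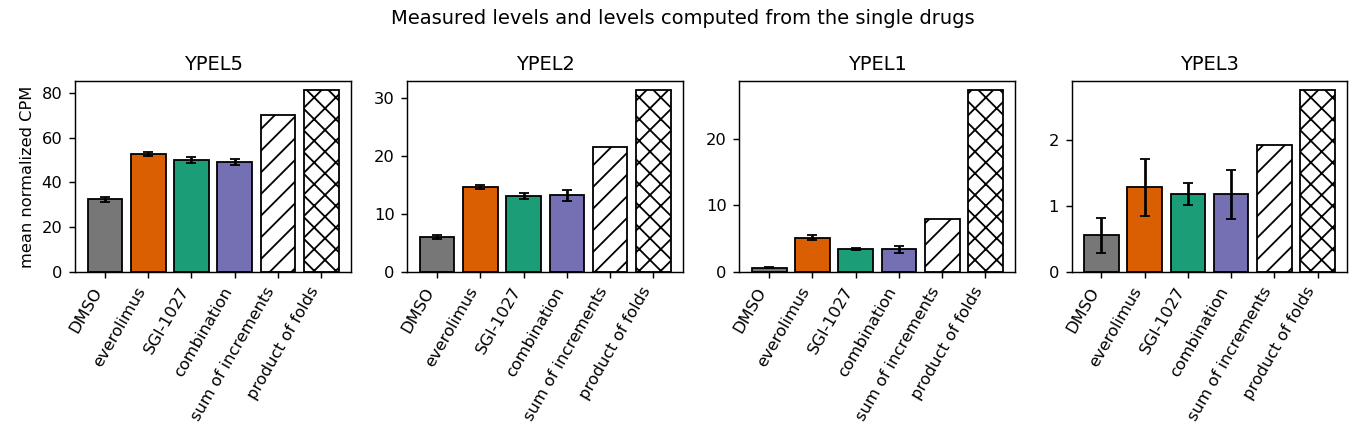
Mean normalized CPM of YPEL5, YPEL2, YPEL1 and YPEL3 in the 4 groups (filled bars, error bars are the SD of 3 libraries) beside the level computed from the single drugs if increments add (hatched) or fold changes multiply (cross-hatched). Each axis starts at 0. The measured combination is below both computed levels for each gene, for example 49.1 against 70.3 and 81.3 for YPEL5.

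On the log2 scale, departure from additivity was computed as an interaction, in which 0 means that the log2 fold changes of the single drugs add up. It was -3.01 (SE 0.22) for YPEL1, -1.24 (SE 0.11) for YPEL2, -1.23 (SE 0.46) for YPEL3 and -0.73 (SE 0.07) for YPEL5. In each member the estimate had about the size of the everolimus difference, with the opposite sign. For that reason no p is given, and nothing is read from the members' share. Among all tested genes 22.1% were called below 0 and 23.6% above 0, a split of 3028 above and 2833 below that became 2335 and 3578 with upper-quartile scaling. The YPEL3 estimate ranged from -1.68 to -0.93 when 1 library at a time was left out. Without the 2 libraries that stood apart the interaction was -3.01, -1.27, -1.58 and -0.69 for YPEL1, YPEL2, YPEL3 and YPEL5.

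The estimated changes differed in size between members, which is given as a description. After SGI-1027, the log2 ratio of YPEL1 to YPEL5 was 1.78 higher than in DMSO cells (SE 0.05), that of YPEL1 to YPEL2 1.31 higher (SE 0.07), that of YPEL1 to YPEL3 1.22 higher (SE 0.36) and that of YPEL2 to YPEL5 0.48 higher (SE 0.08), without overlap between the groups. With the combination the same differences were 1.77, 1.25, 1.22 and 0.52. The exact permutation test (two-sided) gave p = 0.1 for each of these 8 ratios, the smallest p that 3 against 3 libraries allow, and an adjusted p of 0.15 over 12 ratios. The test could therefore call none of them. YPEL1 was noticed for its increase over these same DMSO libraries, so its ratios are not independent of that choice. YPEL3 could not be placed between YPEL2 and YPEL5, since its ratios to both overlapped between DMSO and treated libraries (exact permutation p from 0.3 to 0.9).

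Across the 12 libraries, log2 CPM of YPEL1, YPEL2 and YPEL5 ran closely together (Pearson r from 0.985 to 0.989), and YPEL3 less closely with each (r from 0.774 to 0.802). These coefficients describe 12 libraries that share their group structure. Of 11462 other genes whose mean count was 50 or more, the pattern most like that of YPEL5 was TKFC (r = 0.995), which encodes a dihydroxyacetone kinase, followed by PDCD4 (0.990), an inhibitor of translation initiation, and COL4A2 (0.990), a chain of basement membrane collagen. TKFC (0.991) and PDCD4 (0.989) were also among the 3 most like YPEL1, with DNAJB2 (0.990), an HSP70 co-chaperone. PBXIP1, GAS6, a ligand of TAM receptors, and ING4, a reader of histone methylation, came closest to YPEL2 (each 0.989), and ZNF875 (0.926), ZNF334 (0.924) and GAB1 (0.924) to YPEL3. By Spearman correlation 1 of these 3 remained for YPEL1, 0 for YPEL2, 1 for YPEL3 and 0 for YPEL5, so the nearest genes depend on the measure.

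The genes that work with YPEL5 or share its fold were called in both directions. Of the 10 subunits of the CTLH complex, all tested, 1 rose and 1 fell with everolimus, 2 rose and 2 fell with SGI-1027, and 2 rose and 4 fell with the combination, each against DMSO. Over all tested genes the shares called higher and lower were 27.2% and 29.2%, 32.0% and 30.6%, and 32.8% and 33.4% in the same contrasts. The CTLH list had medians of 0.02, 0.03 and -0.06 on the log2 scale where the medians of all tested genes were 0.00, 0.02 and 0.01. With the combination RMND5B, a RING subunit, rose by 0.60 (SE 0.07, edgeR adjusted p = 1.10e-06), GID4, a substrate receptor, rose by 0.45 (SE 0.08, edgeR adjusted p = 0.000117), and MAEA, a further RING subunit, fell by 0.26 (SE 0.05, edgeR adjusted p = 0.000190). Of the 4 genes listed for a Yippee-like fold or its complex, CRBN, the cereblon substrate receptor, rose by 0.56 with the combination (SE 0.07, edgeR adjusted p = 5.69e-07), while OIP5 and MIS18A, which bring the centromeric histone CENPA to chromatin, fell by 1.12 (SE 0.09, edgeR adjusted p = 2.43e-09) and 0.77 (SE 0.08, edgeR adjusted p = 2.33e-07). Everolimus gave 2 higher and 2 lower genes of this list, while SGI-1027 and the combination each gave 1 higher and 2 lower, too few genes to set against those shares.

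The p53 target list, set beside YPEL3, was mixed. Of 24 genes 23 were tested, and 5 rose and 4 fell with everolimus, 9 rose and 5 fell with SGI-1027, and 9 rose and 6 fell with the combination, with medians of 0.01, 0.07 and 0.04 on the log2 scale beside 0.00, 0.02 and 0.01 for all tested genes. Of all tested genes 27.2% rose and 29.2% fell with everolimus, 32.0% and 30.6% with SGI-1027, and 32.8% and 33.4% with the combination. TP53INP1, a p53-induced regulator of autophagy and cell death, was higher than DMSO in all 3 treated groups, with mean normalized CPM of 0.315 ± 0.144 in DMSO cells, 1.16 ± 0.210 with everolimus, 1.16 ± 0.281 with SGI-1027 and 0.999 ± 0.136 in the combination group (log2 1.65 for the combination, SE 0.34, edgeR adjusted p = 0.000316). For PLK3, a stress-activated kinase, the combination exceeded SGI-1027 by 0.51 on the log2 scale (SE 0.10, edgeR adjusted p = 0.00116). BTG2, an antiproliferative gene, was lower with the combination than in DMSO cells (log2 -0.97, SE 0.25, edgeR adjusted p = 0.00250).

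Among the tested genes beside the YPEL genes that are reported here, LBH and DHX40 rose with each of the 3 treatments. LBH, a transcriptional regulator next to YPEL5, had a mean of 8.70 ± 0.378 normalized CPM in DMSO cells, 34.6 ± 1.24 with everolimus, 46.7 ± 2.47 with SGI-1027 and 58.0 ± 3.4 in the combination group. It was higher with the combination than with SGI-1027 (log2 0.31, SE 0.06, edgeR adjusted p = 0.000571). CLIP4, on the other side of YPEL5, rose by 0.54 with the combination (SE 0.07, edgeR adjusted p = 2.72e-06) and had a log2 difference of 0.10 with everolimus (edgeR adjusted p = 0.234). Beside YPEL2, DHX40, an RNA helicase gene, rose by 0.53, 0.36 and 0.20 with everolimus, SGI-1027 and the combination (edgeR adjusted p = 1.07e-07, 9.58e-06 and 0.00255) and was lower with the combination than with SGI-1027 (log2 -0.16, edgeR adjusted p = 0.0384). GDPD1, on the other side, was called in none of the 3 contrasts with DMSO. Beside YPEL1, PPIL2 fell by 0.31, 0.24 and 0.34 (edgeR adjusted p = 0.000171, 0.00134 and 3.90e-05). The neighbours of YPEL3, PPP4C and GDPD3, had log2 differences of -0.08 and 0.50 with the combination, neither of them called (edgeR adjusted p = 0.101 and 0.256), while PPP4C fell by 0.14 with SGI-1027 (edgeR adjusted p = 0.00542). Beside YPEL4, SERPING1 rose by 1.17 with SGI-1027 (SE 0.37, edgeR adjusted p = 0.00987), and CLP1 fell by 0.30 with everolimus and by 0.44 with SGI-1027 (edgeR adjusted p = 0.0144 and 0.000998). With the combination their log2 differences were 0.41 and -0.18 (edgeR adjusted p = 0.361 and 0.110).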

How the data were processed

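RNA sequencing of 786-O cells comprised 12 libraries in 4 groups of 3, grouped by treatment label. Per gene symbol, the authors deposited raw counts as whole numbers and FPKM values for the same libraries (fragments scaled by gene length and library size). The study describes TRIzol extraction with stranded TruSeq libraries, whereas the sample records name RNeasy and a SMARTer kit. The submitters' processing notes name the mouse builds GRCm38 and mm10, although the symbols are human. The aligner, counting program, strand setting and annotation are not given in the sources used here.

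Counts were fitted in R 4.3.3 with edgeR 4.0.16 (filterByExpr, TMM, quasi-likelihood, prior count 0.125), all 12 libraries in 1 model of group means, with Benjamini-Hochberg adjustment over 12841 genes. Normalized CPM values were computed from counts and TMM factors. At 37046231 to 41516976 counts per library, precision rested mainly on the 3 libraries per group, and replicate counts differed beyond sampling noise (chi-square per gene from 3.15 to 18.1). The fitting procedure was tested on simulated data. Alternatives were DESeq2 1.42.0, upper-quartile scaling, 2 other count filters, replicate number as a term, limma 3.58.1 on log2 FPKM with a pseudocount of 1 or 0.1, fits of the contrast's groups only, the study's cut-off (unadjusted p under 0.05 and a log2 fold change of 1 or more in either direction), Spearman correlation and leaving out each library. Shared 50-base windows were counted in GENCODE transcripts, and promoter windows came from RefSeq.

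The members and lists were chosen with earlier results of these data known, so no p is given for a member in a contrast that contains the everolimus libraries. The members' p-values against DMSO are given, but they are not independent of that choice, because the DMSO libraries were part of it. Named genes were the 5 members, the 3 genes most correlated with each tested member, the 3 called genes of each list with the largest change in the combination against DMSO, and the tested neighbours on each side, of which 1 is not reported here. The CTLH, Yippee-like and p53 lists were typed from general knowledge.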

Additional observations from a re-analysis of the deposited data

Results flagged for a closer look

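The difference between everolimus and its control was smaller with SGI-1027 than without it for the 4 tested YPEL members, as a description without a test. The effect with SGI-1027 minus the effect without it was -1.24 on the log2 scale for YPEL2 (SE 0.11), -1.23 for YPEL3 (SE 0.46) and -0.73 for YPEL5 (SE 0.07). For YPEL1, the member that drew attention to the family, it was -3.01 (SE 0.22). These values contain the everolimus difference in which the family was noticed, so they are not independent evidence and no p is given. Without SGI-1027, everolimus libraries were higher than DMSO by 1.26, 1.22, 0.70 and 2.98 for YPEL2, YPEL3, YPEL5 and YPEL1. With SGI-1027 the differences were 0.02, -0.0039, -0.03 and -0.03 in the same order. Of all tested genes 22.1% were called below 0 and 23.6% above 0 in the interaction, and nothing is read from the members' share. The YPEL3 value is the least certain: it had the largest SE and ranged from -1.68 to -0.93 over the 12 fits that leave out 1 library.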

How the results depend on the processing

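The direction of every called YPEL difference was kept under all alternatives run, while uncalled log2 differences changed sign in 11 of 84 recomputed values for the combination against SGI-1027, 2 of 84 for the combination against everolimus and 1 of 84 for SGI-1027 against everolimus. With the study's cut-off, 3 of 4 members were called for SGI-1027 and for the combination against DMSO, as YPEL5 is below its minimum fold change. The counts of members called against everolimus, from which nothing is read, went from 1 to 0 with that cut-off in both contrasts. For the combination the count was 2 with upper-quartile scaling and 2 without the pair of libraries that stood apart, DMSO replicate 1 and SGI-1027 replicate 3, an alternative chosen after seeing the data. With upper-quartile scaling 2358 of 12841 genes were called higher and 2751 lower for the combination against everolimus. The members' counts use the libraries in which the family was noticed, so they are not independent evidence. With DESeq2 the CTLH list had 0 higher and 2 lower genes for SGI-1027 against everolimus, in place of 1 and 1. The cause of the upper-quartile, 2-library and DESeq2 differences was not tested. Fold changes on log2(FPKM + 1) were smaller since the pseudocount is of the order of the YPEL1 level: 0.93 in place of 2.98 with everolimus, and 2.37 with a pseudocount of 0.1. Over the 12 fits without 1 library, the YPEL3 log2 fold change with SGI-1027 ranged from 0.88 to 1.55 (largest edgeR adjusted p 0.0499), the highest without DMSO replicate 1, and calls of YPEL1, YPEL2 and YPEL5 against DMSO were unchanged. Replicate numbers did not pair the libraries: the correlation of deviations ran from -0.345 to 0.0902 for the same number and from -0.298 to 0.433 for other numbers. With the replicate block the YPEL3 interaction was -1.22 in place of -1.23, and no member's call for SGI-1027 or the combination against DMSO changed. Fitting only the groups of a contrast gave no separate value for the interaction. Depth limits YPEL4 (20 counts in all) and YPEL3 (14 to 68 per library).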
